A study of Schizosaccharomyces pombe with 3 samples.

Results

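Fission yeast takes up several vitamins that it needs for growth and can make others. This account covers 6 of its vitamin genes, liz1, vht1, thi9, nmt1, thi2 and thi4, out of 2899 named genes and 4981 features measured in 3 cultures. They were picked by name from the platform annotation, as 3 genes of uptake carriers and 3 genes of thiamine synthesis, with their values in these cultures already known. All 6 were measured, each by 1 probe set. Every value below is therefore a description and carries no test.

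Each culture of Schizosaccharomyces pombe was read on 1 Affymetrix array. The adapted deletion culture came from strain SpHT257-1 (h- eca39∆::kanMX4) after growth beside wild-type cells on an EMM2-N plate. That plate held 15 mM glutamate and each branched-chain amino acid (isoleucine, leucine, valine) at 2 mM. The deletion culture came from the same strain without adaptation and started from a YE plate, as did the wild-type culture, a prototroph called SpHT219 (h-). All 3 cultures then grew in liquid YE, a rich medium, with the same 3 amino acids at 2 mM, from an optical density near 0.1 to one near 1. Only the adapted cells came from the EMM2-N plate, so adaptation and plate history cannot be told apart. The labels do not say how many clones were used, and they give no vitamin content for either medium.

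The eca39 gene encodes the aminotransferase that interconverts branched-chain amino acids and their keto acids. Its probe set read 6.37 in the adapted deletion, 6.12 in the deletion and 14.60 in wild type on the log2 scale. The mating type lists did not separate cleanly. The 5 M-type genes, those of h- cells, read from 9.28 to 13.30 in the adapted deletion, from 7.46 to 12.35 in the deletion and from 6.59 to 12.31 in wild type, with 0, 1 and 2 of them below the 10th percentile of all values (7.92). Of these, mfm3, an M-factor gene, rose in the adapted deletion against wild type (log2 difference 2.54) and against the deletion (1.80), while mfm1 (2.69) and mam2 (1.21) differed from wild type by over 2-fold below the brightness limit described later. The 5 genes listed as P-type read from 7.29 to 10.23 in the adapted deletion, from 7.37 to 9.70 in the deletion and from 7.0 to 9.57 in wild type. Their P-factor gene map2 was below 7.92 on every array, whereas map1 read 8.81 in the adapted deletion, 7.59 in the deletion and 7.0 in wild type. In the same order, map3 read 8.22, 8.15 and 8.38, slightly below wild type in both mutants, and map4 read 9.58, 9.17 and 9.19. The highest of that list, mam3, is known as an adhesin of M cells and was listed there by oversight. The part of these differences in the vitamin gene values was not tested. The median of all probe sets was 10.69, 10.69 and 10.64.

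Vitamins enter metabolism as parts of coenzymes. Pantothenate becomes part of coenzyme A, biotin is bound to carboxylases, and thiamine is used as thiamine pyrophosphate by enzymes that handle keto acids. In fission yeast Liz1 carries pantothenate, Vht1 biotin and Thi9 thiamine across the plasma membrane. Liz1 and Vht1 belong to the family of the allantoate permease of budding yeast, whereas Thi9 belongs to a family of amino acid carriers. Fission yeast cannot make biotin and depends on its uptake. It can make thiamine from a pyrimidine and a thiazole part, and the genes of that route are known to be repressed when thiamine is supplied. Pantoate, a precursor of pantothenate, is derived from the keto acid of valine in organisms that make it.

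The pantothenate carrier gene liz1 read 1.91-fold above wild type in the adapted deletion and 3.75-fold above it in the deletion, and the biotin carrier gene vht1 read 1.54-fold and 1.93-fold above it. The thiamine carrier gene thi9 read 1.35-fold below wild type in the adapted deletion and 1.31-fold below it in the deletion. Of the thiamine synthesis genes, thi2 and thi4 read nearly the same in all 3 cultures, and nmt1 was dim throughout. A gene was said to rise or fall where its log2 values differed by at least 1, which is 2-fold, and the brighter array reached the 30th percentile of all values, 9.82. By this rule liz1 alone rose, and only in the deletion culture against wild type.

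**Figure D1:**
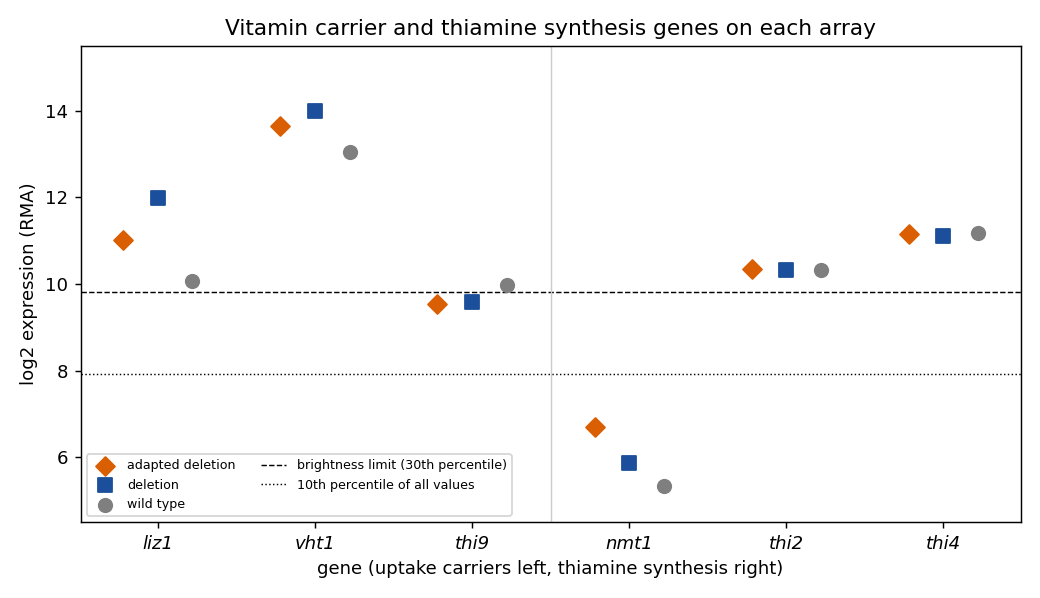
Log2 expression (vertical axis) of each gene (horizontal axis) on the adapted deletion, deletion and wild-type arrays, 1 point per array. The points of liz1 range from 10.08 to 11.98, those of thi2 from 10.33 to 10.35, and all 3 of nmt1 lie under the dotted line at 7.92.

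Counted over all features that reached the brightness limit, 82 of 3569 rose in the deletion against wild type, which is 2.3%, and 85 rose or fell, which is 2.38%. Of the 5 vitamin genes that reached it there, 1 rose (liz1) and none fell. In the adapted deletion against wild type, none of 5 rose or fell, beside 1.7% of 3588 features in either direction. In the adapted deletion against the deletion, none of 4 did, beside 0.665% of 3609 features. These counts and the medians below say nothing about the vitamin genes as a group, since the genes were chosen with their values known. Their median log2 difference was 0.32 in the adapted deletion against wild type, 0.27 in the deletion against wild type and -0.01 in the adapted deletion against the deletion. The medians of all 4981 features were 0.027, 0.000 and 0.003.

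The pantothenate carrier gene liz1 (SPOM_SPBC2G2.01C) read 11.01 in the adapted deletion, 11.98 in the deletion and 10.08 in wild type. The adapted culture stood between the other cultures, close to the middle on the log2 scale. The deletion read 3.75-fold above wild type, a log2 difference of 1.91 that ranked 41st from the highest of all features. The adapted deletion read 1.91-fold above wild type, a log2 difference of 0.93 that lay just outside the 2-fold rule. Set directly against the deletion, the adapted culture read 1.97-fold lower, with a log2 difference of -0.97, and this too lay just outside the rule. This value ranked 30th from the lowest of 4981 features. The position of liz1 among all probe sets of an array was the 57.3rd percentile in the adapted deletion, the 77.5th in the deletion and the 37.1st in wild type.

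To see how far features of similar brightness differ, all features were divided into 10 classes of equal size by their mean level over the 3 arrays. In the class of liz1, which holds 498 features, the 5th and 95th percentiles of the log2 differences between the deletion and wild type were -0.31 and 0.55, and 2 features had a larger absolute difference than liz1. Between the adapted deletion and wild type, 8 features of that class had a larger absolute difference. Between the adapted deletion and the deletion, 3 did. With 1 array per group these positions describe the arrays and do not give a replicate error. An array of a whole culture also cannot tell fewer expressing cells from less RNA per cell.

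The biotin carrier gene vht1 (SPOM_SPAC1B3.16C) read 13.66 in the adapted deletion, 13.99 in the deletion and 13.04 in wild type. The order of the cultures was that of liz1, with smaller distances. The deletion read 1.93-fold above wild type, a log2 difference of 0.95 that lay just outside the 2-fold rule, the next among the 6 genes after liz1, which lay inside it. The adapted deletion read 1.54-fold above wild type, with a log2 difference of 0.62, and 1.26-fold below the deletion, with one of -0.33. The gene was in the brightest of the 10 classes, where readings approach the top of the scale at 15.17 and differences may be compressed. Of 498 features in that class, 6 had a larger absolute difference in the deletion against wild type, and 10 in each of the other comparisons. Its percentile was 93.0 in the adapted deletion, 94.8 in the deletion and 88.9 in wild type.

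The thiamine carrier gene thi9 (SPOM_SPAC9.10) read 9.55 in the adapted deletion, 9.59 in the deletion and 9.98 in wild type. Both mutant readings lay under the brightness limit and the wild-type reading lay above it. The log2 difference from wild type was -0.43 in the adapted deletion, which is 1.35-fold lower, and -0.39 in the deletion, which is 1.31-fold lower. Between both mutants the difference was -0.04. Thi9 read below wild type in both mutants, where liz1 and vht1 read above it. In its class, 55 of 498 features had a larger absolute difference in the adapted deletion and 62 in the deletion. Counted in 1 direction, 492 of the 498 had a difference at least as high as thi9, itself included, in the adapted deletion. In the deletion 491 did. Over all features, its difference ranked 72nd from the lowest in the adapted deletion and 122nd in the deletion.

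**Figure D2:**
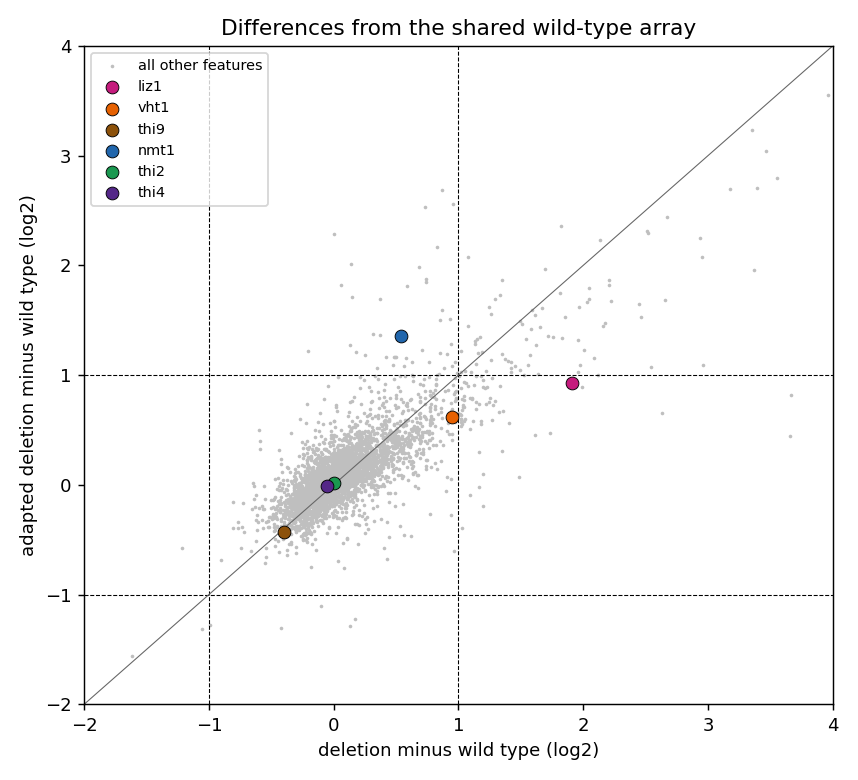
Log2 difference from wild type in the deletion (horizontal axis) and in the adapted deletion (vertical axis) for each feature, with the 6 vitamin genes coloured, dashed lines at 2-fold, the diagonal as a solid line, and 4 features outside the axes not drawn. Both axes share the wild-type array, so points near the diagonal are no independent repeat. Liz1 and vht1 lie below the diagonal, nmt1 above it, and thi9, thi2 and thi4 close to it.

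The first gene of thiamine synthesis, nmt1 (SPOM_SPCC1223.02), encodes the enzyme that makes the pyrimidine part, and its promoter is widely used for regulated expression because thiamine shuts it off. It read 6.69 in the adapted deletion, 5.87 in the deletion and 5.33 in wild type. These readings were at the 5.35th, 3.62nd and 3.24th percentiles of their arrays, so all 3 were near the bottom of the scale. The log2 difference from wild type was 1.36 in the adapted deletion and 0.54 in the deletion, and that between the adapted deletion and the deletion was 0.82. The first of these exceeds 2-fold but does not meet the brightness limit. After repeated quantile normalization the differences from wild type were 0.93 in the adapted deletion and 0.16 in the deletion. The eca39 probe set, in cells without that gene, stood at the 4.48th percentile in the adapted deletion and the 4.2nd in the deletion. These percentiles are set beside those of nmt1 as a description only. Probes differ in affinity, so 1 probe set of a deleted gene gives no background level for nmt1. Dim features tended to read higher in both mutants, since the median difference from wild type in the dimmest class was 0.219 in the adapted deletion and 0.182 in the deletion. In this class of 499 features, 28 had a difference at least as high as nmt1, itself included, in the adapted deletion against wild type, 119 in the deletion against wild type and 13 in the adapted deletion against the deletion.

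The thi2 gene (SPOM_SPBC26H8.01), also called nmt2, encodes the enzyme that makes the thiazole part. It read 10.35 in the adapted deletion, 10.33 in the deletion and 10.33 in wild type. No pair of arrays differed by more than 0.02 on the log2 scale. The thi4 gene (SPOM_SPAC23H4.10C) encodes the enzyme that joins both parts to thiamine phosphate. It read 11.16 in the adapted deletion, 11.11 in the deletion and 11.17 in wild type, a range of 0.06. Such small differences were common on these arrays, where 45.7% of all features differed by less than 0.1 between the adapted deletion and wild type and 43.5% between the deletion and wild type. The summary by median polish, a step of RMA, can also return equal values on different arrays.

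**Figure D3:**
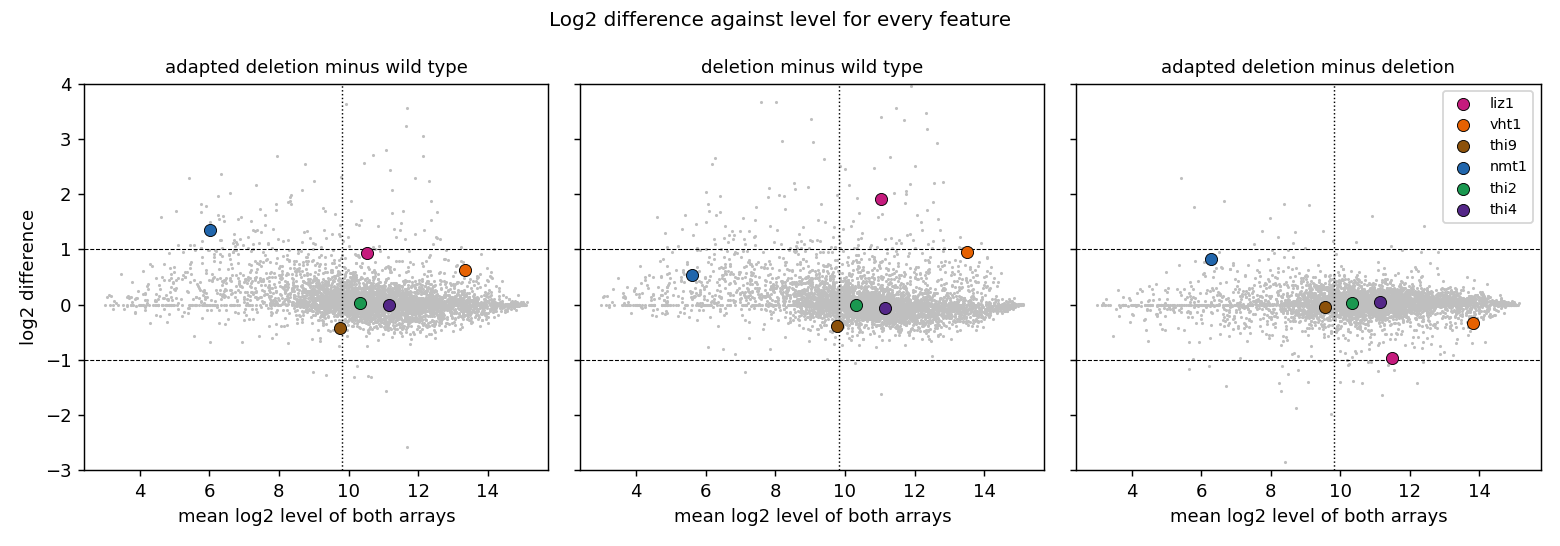
Log2 difference (vertical axis) against the mean log2 level of both arrays (horizontal axis) for each feature in the 3 comparisons, with the 6 vitamin genes coloured, dashed lines at 2-fold and a dotted line at the brightness limit. Outside the axes are 2 features in the left, 3 in the middle and 1 in the right panel. Liz1 stands away from most features of its level in each panel, and nmt1 lies left of the limit, where differences spread widely.

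Other vitamin and cofactor genes were read from lists beside the 6 genes. Of 58 listed, 24 were found by name, 21 reached the brightness limit in each comparison, and none rose or fell. Their log2 differences ran from -0.45 to 0.63 in the adapted deletion against wild type (median -0.03), from -0.38 to 0.59 in the deletion against wild type (median 0.03) and from -0.62 to 0.27 in the adapted deletion against the deletion (median -0.03). All lie within 2-fold. Since 1.7%, 2.38% and 0.665% of all features rose or fell in these comparisons, a count of 0 among 21 genes is near the background and is no result about these lists.

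Of 9 other thiamine genes, 5 were measured, and none rose or fell in any comparison. The transcription factor gene thi1, whose product activates the thiamine genes, read 11.16 in the adapted deletion, 11.11 in the deletion and 11.28 in wild type. The related factor gene thi5 read 9.79, 9.98 and 9.93 in the same order. The gene of thiamine pyrophosphokinase, tnr3, read 9.94, 10.11 and 10.12. Their differences from wild type ran from -0.17 to -0.12 in the adapted deletion and from -0.18 to 0.05 in the deletion. The thiamine-repressed acid phosphatase gene pho4 read 12.14 in the adapted deletion, 12.11 in the deletion and 12.27 in wild type, and is the next protein-coding gene after the deleted eca39 in the gene order of assembly ASM294v3. The third gene after eca39, arg12, read 14.33, 14.52 and 13.66 in the same order, log2 differences from wild type of 0.67 and 0.86. The pyridoxine carrier gene bsu1 read 9.27 in the adapted deletion, 9.19 in the deletion and 9.30 in wild type.

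Of 9 listed enzymes that use thiamine pyrophosphate, 3 were measured, and none rose or fell. All 3 read above wild type in both mutants. For ilv1, the acetolactate synthase of branched-chain synthesis, the log2 difference from wild type was 0.23 in the adapted deletion and 0.48 in the deletion. For pda1 and pdb1, the subunits of pyruvate dehydrogenase that use the coenzyme, it was 0.26 and 0.14 in the adapted deletion and 0.34 and 0.18 in the deletion.

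Of 11 genes listed for pantothenate and coenzyme A, 5 were measured and none rose or fell. The gene of pantothenate synthase, pan6, read 11.42 in the adapted deletion, 11.40 in the deletion and 11.23 in wild type. The gene lys7, whose product attaches the pantetheine arm to a lysine synthesis enzyme, read 9.20, 9.20 and 9.39 in the same order. The fatty acid synthase genes had log2 differences from wild type of -0.16 for fas1 and -0.18 for fas2 in the adapted deletion, and of -0.21 and -0.23 in the deletion. The fifth, ppt1, encodes an enzyme of coenzyme Q synthesis in fission yeast and was listed by oversight, with differences of 0.30 in the adapted deletion and 0.09 in the deletion.

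Of 3 genes listed for biotin use, 2 were measured and neither rose nor fell. The pyruvate carboxylase gene pyr1 read 13.78 in the adapted deletion, 13.95 in the deletion and 13.36 in wild type, log2 differences from wild type of 0.43 and 0.59. The acetyl-CoA carboxylase gene cut6 read 13.35 in the adapted deletion, 13.38 in the deletion and 13.69 in wild type, differences of -0.33 and -0.31. The third, the biotin ligase gene, was not found by name.

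**Figure D4:**
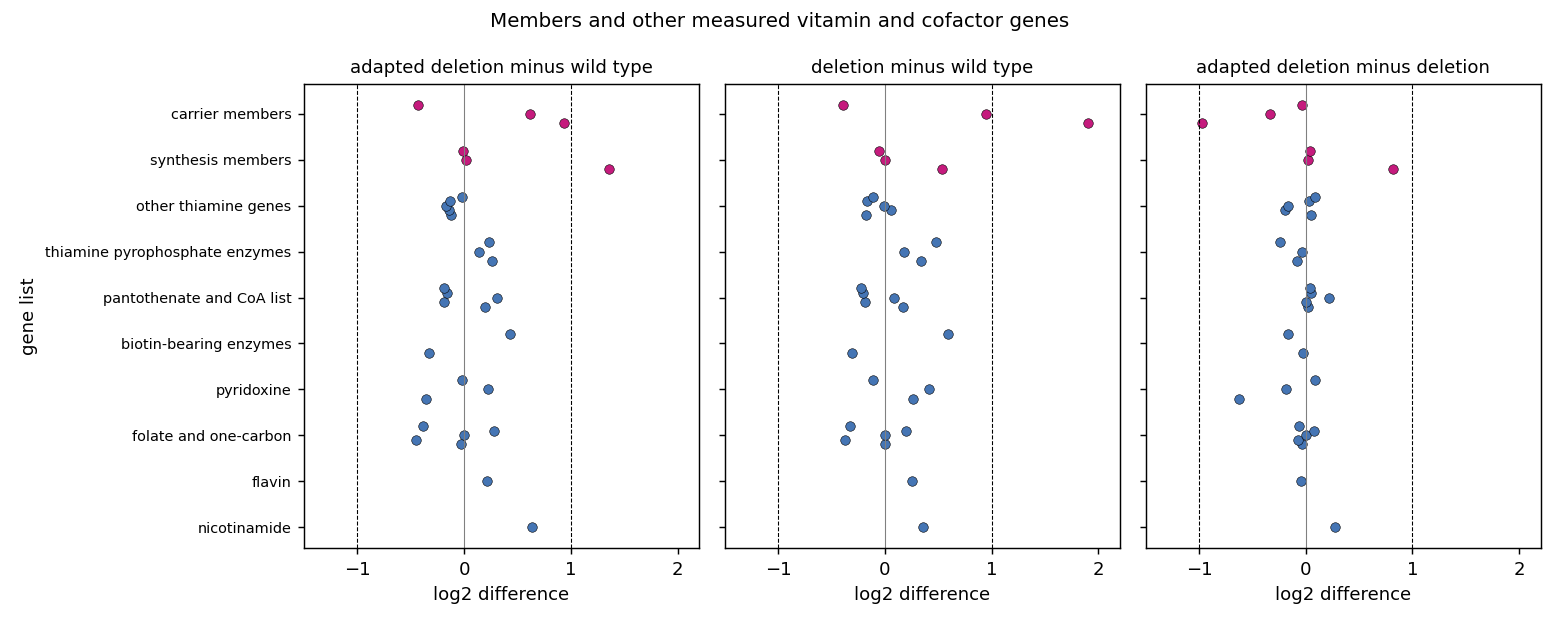
Log2 difference (horizontal axis) in the 3 comparisons for the 6 vitamin genes (pink) and for the other measured genes of each vitamin list (blue), 1 point per gene, with bsu1 in both the thiamine and the pyridoxine list and dashed lines at 2-fold. Of the pink points, liz1 in the deletion and nmt1 in the adapted deletion, each against wild type, lie beyond 2-fold, and none of the blue points does.

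The remaining vitamin lists were covered by few measured genes, and none of these rose or fell. The pyridoxal reductase gene plr1 read 13.05 in the adapted deletion, 13.67 in the deletion and 13.41 in wild type. Its log2 difference was -0.36 in the adapted deletion and 0.26 in the deletion, each against wild type, and -0.62 between the adapted deletion and the deletion. The pyridoxine synthesis gene snz1 stood at 0.23 in the adapted deletion and 0.41 in the deletion, and the riboflavin kinase gene fmn1 at 0.21 and 0.25. The nicotinamidase gene pnc1 had differences of 0.63 and 0.36, but it read 7.52 in the adapted deletion, 7.24 in the deletion and 6.88 in wild type, under the 10th percentile. In the folate list the methylenetetrahydrofolate reductase gene met9 had differences of -0.45 and -0.38, the gene of C1-tetrahydrofolate synthase, ade9, of -0.39 and -0.33, and the serine hydroxymethyltransferase gene shm2 of 0.28 and 0.20.

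For the vitamin genes the 3 most alike named genes were sought by the distance between their pairs of log2 differences from wild type, over the 2 differences that 3 arrays give. The closest to liz1 were the cyclin gene pas1 at a distance of 0.467, the ubiquitin protease gene ubp11 at 0.585 and the amino acid permease gene per1 at 0.596. None of 2162 named genes that reached the brightness limit on any array came within 0.1 of liz1. All 3 of its closest genes had larger differences from wild type in the adapted deletion than liz1, at 1.36 for pas1, 1.42 for ubp11 and 1.53 for per1 against 0.93 for liz1. In the adapted deletion against the deletion they stood at -0.36, -0.16 and -0.33, against -0.97 for liz1. Probe sets without a single gene name were left out of this search, and some stood closer to liz1. One of them had log2 differences from wild type of 0.89 in the adapted deletion and 1.93 in the deletion. Those of liz1 were 0.93 and 1.91.

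The closest to vht1 were sro1 at 0.070, the arginine synthesis gene arg12, the neighbour of eca39, at 0.100 and the ergothioneine synthesis gene egt1 at 0.101. The closest to thi9 was met9, at 0.0283, with 21 named genes within 0.1. For nmt1 no likeness is given, since its readings were too dim to compare. The pairs of thi2 and thi4 were shared within 0.1 by 718 and 748 named genes, so no gene was particularly close to them.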

How the data were processed

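Total RNA from 3 cultures was labelled with the Affymetrix 3' IVT Express kit, per the labels' protocols. Per the submitters' processing notes, the authors used RMA (affy, no version given) to make the deposited log2 values. The log base was taken as 2 from the range of 2.99 to 15.17. RMA sets the probe values of all arrays to 1 distribution before they are summarized, so a shift of most transcripts would not be seen. The genome build is not given in the sources used here, so no positions are stated.

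Of 4999 probe sets, 2917 had 1 gene name in the platform annotation, 20 had several and 2062 had none. Gene numbers of 2914 matched a RefSeq table of assembly ASM294v3, through which 110 names were updated. Probe sets of 1 gene were averaged, which left 4981 features. Differences were described by the 2-fold rule with the brightness limit, without a test, since each group had 1 array. Precision is limited by the number of arrays. The genes and lists were chosen with earlier results of these data known. Named were the 6 genes, up to 3 others of each list by size, any that passed, mating type genes, neighbours of eca39, and the 3 closest genes (not for the dim nmt1). Other members of short lists and the neighbours of the 6 genes were added after their values were seen. The rule was run on simulated data with an assumed noise level, which gives no error rate for these arrays. In addition, 10 alternatives were tried. Promoter and protein sequences were not analysed here. Python 3.11.15, pandas 2.3.3, numpy 2.4.6 and statsmodels 0.14.6 (lowess) were used.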

Additional observations from a re-analysis of the deposited data

How the results depend on the processing

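The rise of liz1 in the deletion against wild type met the rule under all 10 alternatives, with log2 differences from 1.85 to 1.94. Only repeated quantile normalization (1.87), centring each array on its median (1.85) and removal of the intensity trend by lowess (1.94) altered this value. The other alternatives changed the limit, the threshold or the choice of probe sets and left it at 1.91. Liz1 in the adapted deletion against the deletion, at -0.97, became a fall after repeated quantile normalization (-1.01) and after removal of the intensity trend by lowess (-1.01), and at a 1.5-fold threshold, so the count there became 1. At 1.5-fold, liz1 and vht1 both counted as higher in the adapted deletion against wild type (2 genes) and in the deletion against wild type (2 genes). Over the alternatives, the difference of vht1 in the deletion against wild type ran from 0.89 to 0.9999. The highest value came after removal of the intensity trend by lowess and lay just short of the 2-fold rule. Without the brightness limit nmt1 counted as higher in the adapted deletion against wild type (1 gene), although its difference ran from 0.93 to 1.36 over the alternatives, and that in the deletion against wild type from 0.16 to 0.54. The differences of thi2 from wild type in the adapted deletion changed sign under 3 alternatives, within -0.03 to 0.02, and its difference between both mutants under 1. Leaving out _s_at and _x_at probe sets, or taking the brightest one, could not alter the values of the 6 genes, which have 1 plain _at probe set each, so those settings bear on the counts over all features only.

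Over all features, the 61 calls in the adapted deletion against wild type, the 85 in the deletion against wild type and the 24 in the adapted deletion against the deletion became 145, 219 and 79 at 1.5-fold, 25, 38 and 5 at 3-fold, and 133, 152 and 46 without the brightness limit. With the limit at the 10th percentile they were 96 in the adapted deletion against wild type and 40 in the adapted deletion against the deletion. No paired analysis was possible because each group had 1 array, and for the same reason no replicate could be left out. Signal near the bottom of the scale limits what can be said of nmt1, and signal towards its top may limit what can be said of vht1.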

Other observations

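The genes that lie next to the 6 vitamin genes were read as a description of their surroundings. Among up to 3 protein-coding neighbours on either side in the gene order of assembly ASM294v3, 23 were found by name. None of these rose or fell in the adapted deletion against wild type, where their log2 differences ran from -0.27 to 0.59, or in the adapted deletion against the deletion, where they ran from -0.46 to 0.54. In the deletion against wild type, 19 of the 23 reached the brightness limit and 1 rose. Beside the 2.3% of all features that rose there, this count is no result about the neighbours. The gene that rose was egt1, a gene of ergothioneine synthesis, the third gene before thi2, which read 9.68 in the adapted deletion, 10.14 in the deletion and 9.09 in wild type. Beside liz1, the synaptojanin-like gene syj1 read 10.37 in the adapted deletion, 10.35 in the deletion and 10.64 in wild type. The third gene after liz1, mmf1, read 14.62, 14.78 and 14.21 in the same order, log2 differences from wild type of 0.42 and 0.57. Beside vht1, the silencing gene clr2 read 9.01 in the adapted deletion, 9.05 in the deletion and 9.16 in wild type.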
